A study of Mus musculus with 2 samples.

Results

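The genes described here are the 5 mouse miRNA genes Mir155, Mir146, Mir146b, Mir142 and Mir223, of 2202 miRNA genes in the count tables. They were chosen by symbol in the M21 gene annotation, as miRNAs known from immune cells and from Toll-like receptor signalling, and all 5 were found. Small RNA below 30 nt was sequenced from hippocampus of adult females, 8 to 10 months old, of a strain labelled 5xFAD/CAST. 5xFAD transgenes carry human mutations of familial Alzheimer's disease, expressed in neurons from a Thy1 promoter, and such mice develop amyloid plaques with activated microglia around them. CAST is a wild-derived inbred strain. The labels name no genotype beyond this strain, and both libraries fall in 1 group of 2 biological replicates. They share a donor entry and have separate biosample entries, so the spread below is that between these samples. There is no other genotype, age or tissue, so the data give the level of each gene and its replicate spread, not a response to amyloid.

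Microglia are the resident macrophages of the brain, and Toll-like receptors let them sense microbial and damage signals, partly through the transcription factor NF-kappaB. Several miRNAs sit in this pathway in mice and humans. MiR-155 is induced by it and represses brakes on inflammation such as Socs1. MiR-146a is also induced by it and represses the adaptors Irak1 and Traf6, which limits the signal. MiR-142 is made in cells of the blood lineages and in microglia, and miR-223 is made mainly in neutrophils and monocytes.

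The mature sequences show which of the 5 genes share targets and which can share reads. They are shown 5′ to 3′ as RNA from RefSeq (GRCm38.p6), with the seed, bases 2 to 8, in capitals. The seed is the part that mainly chooses the target. Both arms of each hairpin are given, because the counts add the arms of a gene.
mmu-miR-155-5p: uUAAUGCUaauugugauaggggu
mmu-miR-155-3p: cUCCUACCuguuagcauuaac
mmu-miR-146a-5p: uGAGAACUgaauuccauggguu
mmu-miR-146a-3p: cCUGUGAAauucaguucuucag
mmu-miR-146b-5p: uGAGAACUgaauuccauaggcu
mmu-miR-146b-3p: gCCCUAGGgacucaguucuggu
mmu-miR-142a-5p: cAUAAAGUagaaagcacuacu
mmu-miR-142a-3p: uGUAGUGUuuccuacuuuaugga
mmu-miR-223-5p: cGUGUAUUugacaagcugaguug
mmu-miR-223-3p: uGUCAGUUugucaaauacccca

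Of these 10 sequences, only miR-146a-5p and miR-146b-5p had a seed found in another gene of the RefSeq table, and that gene was the other of the pair. They share their first 17 bases and differ at 2 of 22, written G18A and U21C, with the base of miR-146a-5p first and positions counted from 1 at the 5′ end. Reads cut short of position 18 cannot be assigned to 1 of the 2 genes, and how many there were was not tested. For the arms of Mir155 and Mir223 and the 3p arms of Mir146 and Mir146b, the longest run shared with another of the 1005 hairpins in the table was 9 to 11 bases. The arms of Mir142 match another hairpin in full, that of Mir142b, on the other strand of the same place.

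Positions are from M21 on mm10, and RefSeq gives the same ends for all 5 hairpins. Mir155 (ENSMUSG00000065397.1) lies at chr16:84714140-84714204 on the plus strand, in an exon of its long non-coding host Mir155hg. Mir146 (ENSMUSG00000065601.1), the gene of miR-146a, lies at chr11:43374397-43374461 on the minus strand and overlaps no other annotated gene. Its nearest protein-coding gene is Pttg1, 45789 bp away. Mir146b (ENSMUSG00000070127.2) lies at chr19:46342762-46342870 on the plus strand, in an intron of the protein-coding gene Mfsd13a. Mir142 (ENSMUSG00000105196.1) lies at chr11:87756864-87756927 on the plus strand, in an intron of the non-coding gene Mir142hg. Mir223 (ENSMUSG00000076066.1) lies at chrX:96242817-96242926 on the plus strand, where it falls in an exon of non-coding F630028O10Rik. Vsig4, a complement receptor gene of macrophages, is the nearest protein-coding gene to Mir223, at 4277 bp.

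The 5 genes stand alone in the genome rather than in miRNA clusters. Leaving out the overlapping Mir142b, all 5 were free of other miRNA genes within 100000 bp, as were 151 of 384 genes with at least 10 counts in each library (39.3%) and 1301 of all 2202 (59.1%). Long non-coding genes on the same strand overlapped 3 of the 5, against 84 of those 384 (21.9%). Protein-coding genes on the same strand overlapped 1 of the 5, against 205 of the 384 (53.4%). These are descriptions of 5 chosen genes, with no test.

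Replicate 1 held 3135960 counts assigned to miRNA genes on their own strand and replicate 2 held 4377622. Levels are these counts scaled to an equal library total (CPM). Comparisons between genes rest on reads, and how evenly library preparation captured each sequence was not tested. Multimapping reads were 36.3% and 41.7% of all reads in replicates 1 and 2 and stand outside the gene counts. With 3 counts as the limit of a count of 0, the floors were 0.957 CPM for replicate 1 and 0.685 CPM for replicate 2. Intervals are exact Clopper-Pearson 95% intervals, and with the floors they cover the counting error of reads only. PCR copies are not independent molecules, so the error over molecules can be larger. In whole tissue, fewer cells of a type and less RNA per cell cannot be told apart.

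The labelled tissue showed some neuronal miRNAs at high levels, with 9 of 13 listed genes at 10 counts or more in each library. Their summed levels were 60317 and 59266 CPM in replicates 1 and 2. Mir127, Mir132, Mir128-1 and Mir137 led that list. Most of the sum came from Mir127 (24284 and 24896 CPM) and Mir132 (21687 and 13106 CPM). Mir9-1, Mir9-2 and Mir9-3 of the same list were low, at 25.2, 3.19 and 58.7 CPM in replicate 1. In replicate 2 they were at 27.6, 0.914 and 53.7 CPM. These Mir9 genes are also copies of 1 miRNA, and the part of multimapping reads in their low counts was not tested. The defining neuronal genes Mir124a-1, Mir124a-2 and Mir124a-3, copies of 1 miRNA, had between 0 and 8 counts, and the part of multimapping reads in that was not tested.

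By reads, the gene of miR-146a was the most abundant of the 5 genes. Mir146 had 4455 counts in replicate 1 and 7144 in replicate 2. This was 1421 CPM (interval 1379 to 1463) and 1632 CPM (1594 to 1670), and 1526 ± 149 CPM over both (SD, n = 2). It ranked 79 and 71 among the 2202 genes in replicates 1 and 2. Alone it supplied 75.4% and 77.3% of the counts of the 5 genes, or 76.3% ± 1.35 (SD, n = 2).

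Mir146b, which has the same seed, was close to the limit of detection. It had 13 counts in replicate 1 and 5 in replicate 2, or 4.15 CPM (interval 2.21 to 7.09) and 1.14 CPM (0.371 to 2.67). Its mean was 2.64 ± 2.12 CPM (SD, n = 2), and it was the only one of the 5 without 10 counts in each library. Within a library, where scaling plays no part, Mir146 had 343 times the counts of Mir146b in replicate 1 (interval 200.2 to 644) and 1429 times in replicate 2 (612 to 4402). Only the 5p arms share the seed GAGAACU, and the counts add both arms, so the ratio of the 5p arms themselves was not measured.

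Mir155 and Mir142 lay close together in the middle of the range. Mir155, the inflammation-induced gene, had 652 counts in replicate 1 and 1028 in replicate 2, which was 208 CPM (interval 192 to 224) and 235 CPM (221 to 249.6). Mir142, the marker of blood-derived cells and microglia, had 767 and 1038 counts in replicates 1 and 2, which was 245 CPM (228 to 263) and 237 CPM (223 to 252). The means were 221 ± 19.0 CPM for Mir155 and 241 ± 5.28 CPM for Mir142 (SD, n = 2), 19.5 CPM apart.

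Mir142 exceeded Mir155 in both libraries, but in replicate 2 by less than counting error. The ratio of Mir142 to Mir155 was 1.18 in replicate 1 (interval 1.06 to 1.31) and 1.01 in replicate 2 (0.925 to 1.10). Mir146 stood well above both, at 6.83 times Mir155 in replicate 1 (6.29 to 7.43) and 6.95 times in replicate 2 (6.51 to 7.43). The ratio of Mir146 to Mir155 thus differed between the libraries by less than counting error.

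Mir223, the neutrophil and monocyte miRNA, was near the bottom. It had 25 counts in replicate 1 and 32 in replicate 2, which was 7.97 CPM (interval 5.16 to 11.8) and 7.31 CPM (5.00 to 10.3), or 7.64 ± 0.468 CPM (SD, n = 2). The ratio of Mir155 to Mir223 was 26.1 in replicate 1 (17.5 to 40.6) and 32.1 in replicate 2 (22.6 to 47.2).

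**Figure D1:**
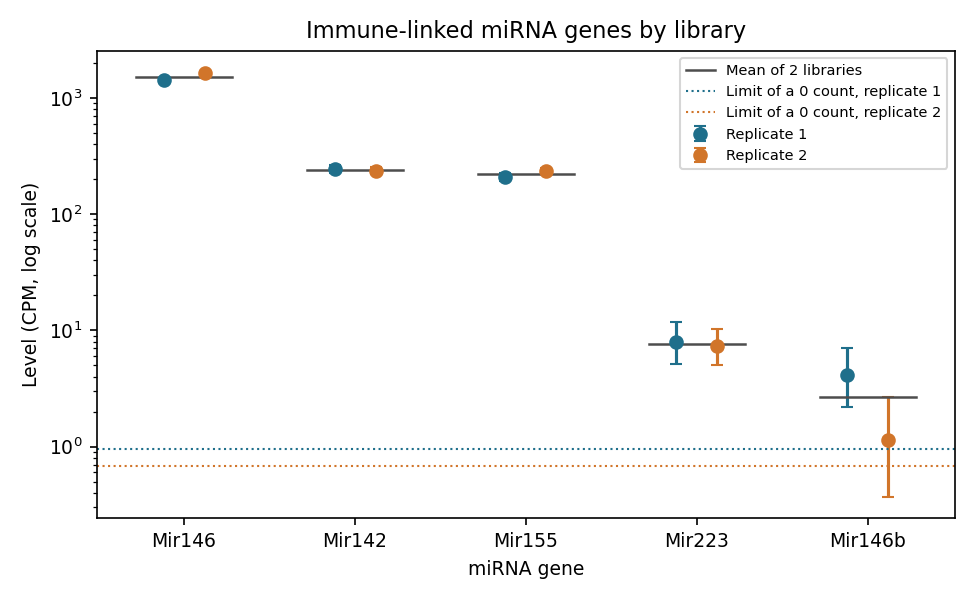
Level of each of the 5 genes in CPM (log axis) in replicate 1 and replicate 2, with exact 95% counting intervals, the mean of both libraries as a bar, and the level that a count of 0 allows as dotted lines. Mir146 stands at 1421 and 1632 CPM, Mir142 and Mir155 lie between 208 and 245 CPM, and Mir146b in replicate 2 reaches down to the dotted lines.

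By mean level the order was Mir146, Mir142, Mir155, Mir223 and Mir146b. The gap between Mir142 and Mir155 was about as large as the SD of Mir155, so this pair is not separated beyond its spread. Mir223 and Mir146b were 5.00 CPM apart, above the SD of either, yet the ratio of Mir223 to Mir146b in replicate 1 was 1.92 with an interval of 0.947 to 4.09, which includes equal levels. In replicate 2 that ratio was 6.40 (2.48 to 21.04). The other neighbours in the order were separated in each library.

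Among all 2202 genes the 5 ranked 75 (Mir146), 155 (Mir142), 158 (Mir155), 335 (Mir223) and 423 (Mir146b) by mean level. The median of the 384 genes with at least 10 counts in each library was 116 CPM, so Mir146, Mir142 and Mir155 lay above it and Mir223 below it. Together the 5 genes held 0.189% of the counts in replicate 1 (interval 0.184% to 0.193%) and 0.211% in replicate 2 (0.207% to 0.216%), or 0.200% ± 0.0161 (SD, n = 2).

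**Figure D2:**
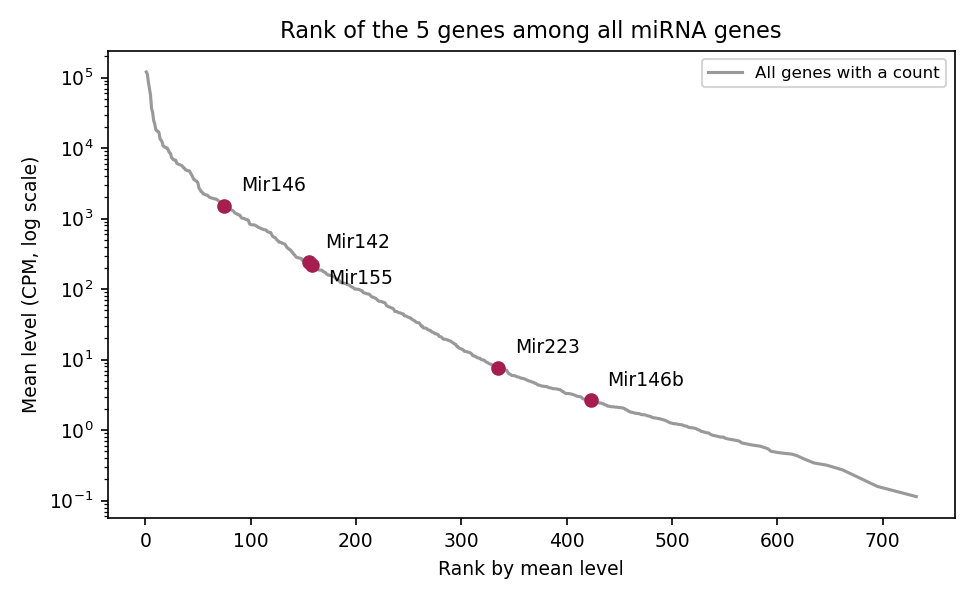
Mean level in CPM (log axis) of all genes with a count against their rank, with the 5 genes as points. Mir146 is at rank 75, Mir142 and Mir155 lie side by side at ranks 155 and 158, and Mir223 and Mir146b lie on the low tail at ranks 335 and 423.

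Mir142, Mir223, Mir155 and Mir146 had close levels in the 2 libraries, and Mir146b differed more. The SD as a percentage of the mean was 2.19% for Mir142, 6.13% for Mir223, 8.60% for Mir155 and 9.79% for Mir146, against 80.3% for Mir146b. Counting error alone would give about 3.37% for Mir142, 18.9% for Mir223, 3.54% for Mir155, 1.35% for Mir146 and 37.2% for Mir146b. The spread of Mir142 and Mir223 was thus below this figure and that of the other three above it, in CPM without TMM scaling. For Mir155 the difference between the libraries did not pass the test against counting error once TMM sizes were used. The median over the 384 genes with 10 counts in each library was 17.7%.

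The 2 counts of each gene were compared with a two-sided exact binomial test against library sizes scaled by TMM, with Benjamini-Hochberg adjustment over the 459 genes that had at least 10 counts in either library. This test takes counting error as its null and compares these 2 libraries, not conditions. It called 261 of 459 genes, or 56.9%, of which 133 were higher in replicate 1 and 128 in replicate 2. Of the 5 genes it called 2, in opposite directions, and with so few genes nothing is read from that count against the background. With total reads in place of TMM, 32.5% of the called genes were higher in replicate 1, against 51.0% with TMM.

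Mir146 was lower in replicate 1 by a small amount, with a log2 ratio of replicate 1 over replicate 2 of -0.13 (interval -0.18 to -0.08; exact binomial test, adjusted p = 6.42e-06). Mir146b was higher in replicate 1, with a log2 ratio of 1.56 after adding 0.5 CPM (interval without that addition 0.35 to 3.77; exact binomial test, adjusted p = 0.0153). This rests on 18 reads, and the value was 0.60 with 5 CPM added and 1.93 with none. With total reads in place of TMM library sizes it was 1.02. Mir155 had a ratio of -0.11 (-0.25 to 0.04; exact binomial test, adjusted p = 0.211), and was called without TMM factors, at -0.18 (exact binomial test, adjusted p = 0.0282), and with total reads, at -0.30 (exact binomial test, adjusted p = 7.96e-05). Mir142 had 0.11 (-0.02 to 0.25; exact binomial test, adjusted p = 0.148) and Mir223 had 0.18 (-0.62 to 1.00; exact binomial test, adjusted p = 0.760). The interval of Mir223 still allows a difference of nearly 1 log2 unit, so its libraries could not be told apart at this depth.

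The median size of the log2 ratio was 0.13 over the 5 genes, against 0.40 over the 459 genes tested. It was 0.36 over the 384 genes with at least 10 counts in each library. How this size depends on level was not tested. Mir155, Mir142, Mir146 and Mir223 had larger ratios than 13.9%, 15.5%, 18.1% and 23.5% of the tested genes, and Mir146b than 90.2%.

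**Figure D3:**
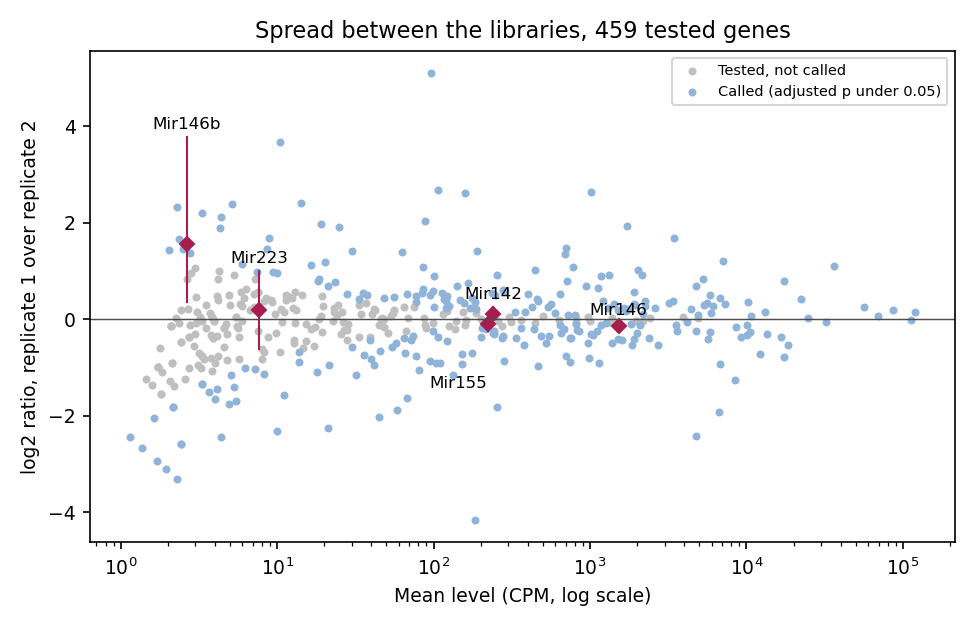
Log2 ratio of replicate 1 over replicate 2 against mean level in CPM (log axis) for the 459 tested genes, with called genes in blue and the 5 genes as diamonds with exact 95% intervals. Mir142, Mir155 and Mir146 lie within 0.13 of 0, Mir223 has an interval that spans 0, and Mir146b lies above the line at 1.56.

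Mir142 could be counted only with the strand taken into account. Mir142b, an annotated miRNA gene on the minus strand at chr11:87756841-87756955, covers the whole of Mir142. The hairpins are given from RefSeq, 5′ to 3′, to show the shared stretch, with the overlap in capitals, bases 29 to 92 of Mir142b, which are the reverse complement of all 64 bases of Mir142.
Mir142: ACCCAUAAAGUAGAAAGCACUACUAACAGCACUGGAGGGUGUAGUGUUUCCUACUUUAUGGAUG
Mir142b: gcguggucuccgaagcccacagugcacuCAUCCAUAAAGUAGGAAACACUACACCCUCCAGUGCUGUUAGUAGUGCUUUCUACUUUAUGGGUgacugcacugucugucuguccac

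On its own strand Mir142 had the 767 and 1038 counts given above for replicates 1 and 2. Counted without regard to strand, both genes had 0 counts in both libraries. That column sets reads apart as ambiguous, 221479 in replicate 1 and 383239 in replicate 2, and 24 of the 384 genes with 10 counts in each library had 0 there. Mir142b had 0 counts on its own strand in both libraries, while its opposite-strand column held 767 and 1038, the same numbers as Mir142. Reads from the Mir142 strand were thus at least 256 times as many as those from the Mir142b strand in replicate 1 and at least 346 times in replicate 2, with 3 counts per library as the floor.

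Mir155, Mir146, Mir146b and Mir223 had the same counts with and without regard to strand. No count fell on the opposite strand of any of the 5 genes in either library, as for 354 of the 384 genes above.

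**Figure D4:**
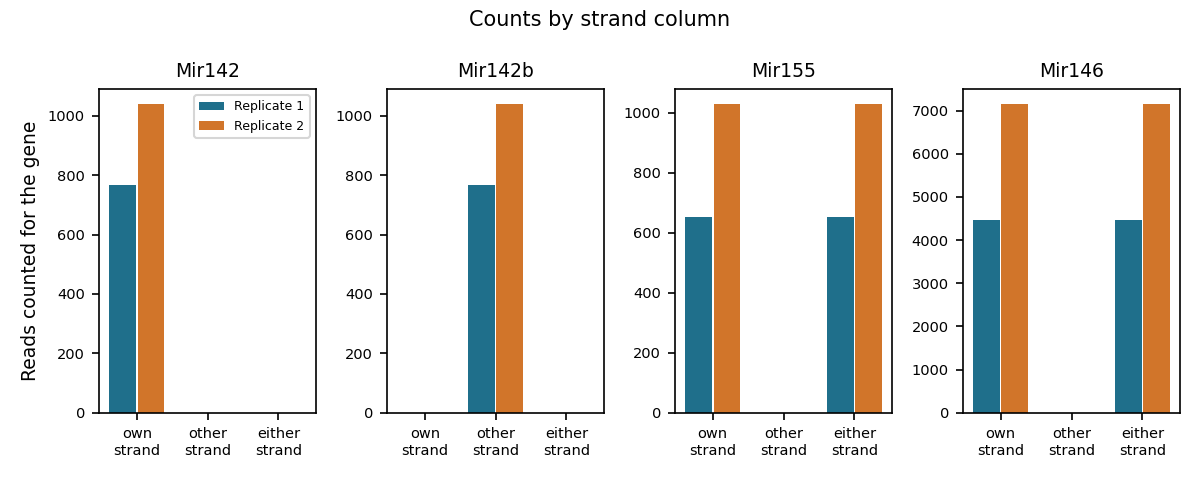
Reads counted for Mir142, Mir142b, Mir155 and Mir146 on their own strand, on the other strand and without regard to strand, in replicates 1 and 2, each panel with its own axis from 0. The bars of Mir142 on its own strand, 767 and 1038, return as the other-strand bars of Mir142b, and both genes have none in the column for either strand.

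Other miRNAs tied to Toll-like receptor or NF-kappaB signalling were present at higher summed levels, 146082 CPM in replicate 1 and 135826 CPM in replicate 2, most of it from let-7 genes. Of 18 listed genes 17 were tested, and 8 were called higher in replicate 1, 5 higher in replicate 2 and 4 were not called, against the background of 56.9%. The median size of their log2 ratio was 0.76, against 0.40 over all tested genes. The list was led by Mirlet7i, Mirlet7e, Mir132 and Mir125a. Mir132 and the Mir9 genes are also in the neuronal list above, and the part of immune signalling in the summed level was not tested. Mir21a, which rises in reactive glia and macrophages, had 5176 CPM in replicate 1 and 1686 CPM in replicate 2, a called difference with a log2 ratio of 1.69. It is among the 8 called higher in replicate 1. The 5 called the other way include Mir99b, with a log2 ratio of -1.92, and Mir125a, with -0.72. Which cells these differences come from was not tested. Mir147, a target of Toll-like receptor signalling in mouse macrophages, had 2.23 and 5.48 CPM in replicates 1 and 2 (exact binomial test, adjusted p = 0.0736).

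Other myeloid and microglial miRNAs were led by Mir23a, Mir22, Mir342 and Mir322. Of 8 listed genes, 7 were tested, 4 were called higher in replicate 2 and 0 higher in replicate 1, and 4 of 7 is close to the background of 56.9% called over all tested genes. The summed level was 15032 CPM in replicate 1 and 25373 CPM in replicate 2, and both Mir23a and Mir22 are also made outside these cells. Mir511, in the macrophage mannose receptor gene Mrc1, had 5 counts in replicate 1 and 6 in replicate 2, or 1.59 and 1.37 CPM. Mir142, at 245 and 237 CPM, thus stood far above Mir511 in each library.

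Blood left in the tissue can also hold miR-142 and miR-223, so its other miRNAs are given beside them. The lymphocyte miRNA Mir150 had 803 CPM in replicate 1 and 791 CPM in replicate 2, more than 3 times Mir142. Of the red cell genes, Mir451a had 43.4 and 31.8 CPM, Mir486 had 23.9 and 29.5 CPM and Mir144 had 2.87 and 17.1 CPM in replicates 1 and 2. The erythroid list summed to 70.2 and 78.4 CPM and the lymphoid list to 1438 and 1319 CPM, of which Mir181a-1, also made in brain, supplied 612 and 514 CPM, with no member at 0 in both libraries. Mir223, at 7.97 and 7.31 CPM, lay below Mir451a and Mir486 in both libraries. The part of blood in the levels of Mir150, Mir142, Mir223 and Mir155 was not tested.

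Choroid plexus and epithelial miRNAs were higher in replicate 1, as was Mir146b. All 12 tested genes of 14 listed were called higher in replicate 1, against 133 of 459 over all tested genes, with a median log2 ratio of 2.08. The list was chosen with earlier results of these data known, so this count is a description only. Some of its genes come from shared miRNA clusters, so they are not 12 separate observations. The summed level of the list was 3794 CPM in replicate 1, against 1296 CPM in replicate 2. Mir34c, Mir204, Mir183 and Mir200c led the list, and Mir449b was at 0 in both libraries. Their part in the difference of Mir146b was not tested. Mir142, Mir155 and Mir146 had ratios between -0.13 and 0.11 across the same libraries, and Mir223 had 0.18 with a wide interval of -0.62 to 1.00. The endothelial gene Mir126a was at 12521 and 22475 CPM in replicates 1 and 2, with Mir126b at 0 in both, and the pericyte and smooth muscle list summed to 8170 and 6864 CPM. The oligodendrocyte list summed to 6799 and 6685 CPM.

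**Figure D5:**
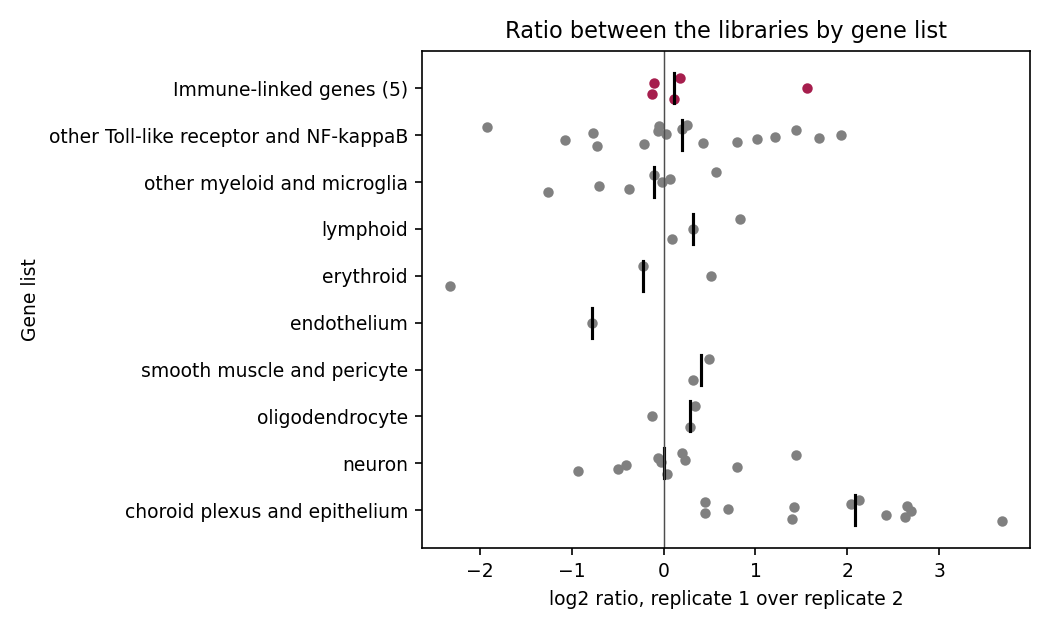
Log2 ratio of replicate 1 over replicate 2 for the tested genes of each list, with the 5 genes on top and the median of each list as a bar. Mir146, Mir155, Mir142 and Mir223 lie between -0.13 and 0.18 and Mir146b at 1.56, while the 12 choroid plexus and epithelial genes all lie to the right of 0 with a median of 2.08.

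The genes most alike in level were found by the distance between log2(CPM + 1) values over the 2 libraries, the 3 nearest for each gene. Nearest to Mir146 were Mir423, Mir708 and Mir484, at distances of 0.21 to 0.22. Nearest to Mir155 were Mir384 (0.09), Mir218-2 (0.10) and Mir329 (0.18), with Mir384 at 199 CPM in replicate 1 and 224 CPM in replicate 2. Nearest to Mir142 were Mir339 (0.17), Mir155 (0.23) and Mir1306 (0.25). Mir155 was the only one of the 5 genes found among the neighbours of another. Nearest to Mir223 were Mir224, Mir6900 and Mir547, and nearest to Mir146b were Mir879, Mir6966 and Mir7021, the last 3 with 12 to 13 counts in replicate 1 and 4 to 6 in replicate 2. With only 2 libraries, such likeness is one of level and says little of pattern.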

How the data were processed

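The authors deposited a table of raw read counts per library, with 4 summary lines and 3 columns of counts (without regard to strand, and on each strand), mapped to mm10 with the M21 annotation per the deposited notes. The sources used here name neither the aligner nor the counter, nor any trimming. Column 3 was taken as the own-strand count; its share of the 2 strand columns was 93.4% in replicate 1 and 91.9% in replicate 2. Summary lines were left out of library sizes and tests. Of 9962659 and 12761689 reads, 31.5% and 34.3% were assigned. The 2 libraries differed far beyond sampling noise (chi-square per degree of freedom 422 over 459 genes), so they are not 1 library deposited under both names, and they were counted as 2 samples because the labels call them biological replicates.

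CPM used assigned counts. TMM factors (0.976 and 1.02) came from edgeR 4.0.16 in R 4.3.3, and the common coefficient of variation with an intercept alone was 38.5%. The exact binomial test was tested on simulated Poisson counts, which hold counting error alone and not this spread between replicates. Other steps ran in Python 3.11.15 with scipy 1.17.1, numpy 2.4.6, matplotlib 3.10.9 and pandas 2.3.3, and DESeq2 1.42.0 gave alternative size factors. The 5 genes and the lists were chosen with earlier results of these data known. Genes are named by a rule: the 5 genes, their 3 nearest genes, overlapping and seed-sharing miRNA genes, and up to 4 leaders of each list. Mir21a, Mir99b, Mir147, Mir511, Mir449b, the 3 Mir124a genes, Mir9-1, Mir9-2 and Mir9-3 were named beyond this after their values were seen. Mature and hairpin sequences are from RefSeq, matched by symbol for 5 of 5 genes.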

Additional observations from a re-analysis of the deposited data

How the results depend on the processing

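With total reads as library size, levels became 73.0 (Mir155), 503 (Mir146), 79.2 (Mir142) and 2.51 (Mir223) CPM, and the 5 genes held 0.0659% of reads, which follows from the larger denominator. With the let-7 genes left out of the library size they became 351, 2420, 383 and 12.1 CPM in the same order. Without regard to strand, Mir155 was at 241, Mir223 at 8.29 and Mir142 at 0 CPM, and 1 of the 5 genes (Mir146) kept its place in the order. Mir142 fell to the last place, while Mir146, Mir155, Mir223 and Mir146b kept their order among themselves. The order was the same under the other alternatives run. Leaving out replicate 1 or 2 gave 235 and 208 CPM for Mir155, 1632 and 1421 for Mir146, 1.14 and 4.15 for Mir146b, 237 and 245 for Mir142 and 7.31 and 7.97 for Mir223.

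The binomial test called 232 to 280 genes under the 6 alternatives, against 261. The number of genes tested differed between them. The called share was 34.1% of the 757 genes with at least 1 count. It was 55.3% to 61% under the other alternatives, against 56.9%. Of the 5 genes the test called 1 (Mir146) with at least 10 counts required in each library, since Mir146b was then not tested. The share over all tested genes in that setting was 60.4%. The test called 3, Mir155 added, without TMM factors or with total reads, where the shares over all tested genes were 58.4% and 61%. With so few genes, nothing is read from these counts against those shares. With total reads the median log2 ratio of all tested genes was -0.21, against -0.03 with TMM, and Mir142 changed sign without being called (-0.08, exact binomial test, adjusted p = 0.336). The neighbours in level depended on the measure: by rank of the mean, 0 of 3 were shared for Mir142 and Mir223 and 1 of 3 for Mir155 and Mir146b. No paired analysis was possible because there is 1 group. The counts of Mir146b and Mir223, 5 to 32 in a library, limit what can be said of their levels.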
